A study of Mus musculus with 9 samples.

Results

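The genes of the collagen chains, the laminin chains, the integrin subunits and a few of their partners were read across 3 genotypes of mouse cumulus cells. Members were chosen by name: symbols that begin with Col, a number and the letter a, with Lama, Lamb or Lamc and a number, or with Itga or Itgb, together with Nid1, Nid2, Hspg2, Fn1, Timp1, Timp2 and Timp3. The name rule found 88 genes with 185 probe sets, and each gene was read from its probe set with the highest mean. Of the 88 genes, 64 exceeded the 40th percentile of their own array on at least 3 of the 9 arrays and were tested, among 13447 genes tested in all. The 64 comprised 29 of 42 collagen chains, 10 of 10 laminin chains, 11 of 16 integrin alpha and 6 of 9 integrin beta subunits, the 3 TIMPs, and Nid1, Hspg2 and Fn1. The remaining 2, Itgb1bp1 and Itgb3bp, are no integrin subunits and matched the rule through their spelling alone. The 24 members below the filter included Nid2, Col1a2, Col2a1 and the leukocyte integrin subunits Itgal, Itgam, Itgax and Itgb2. At the edge of the filter, Col19a1 and Col4a2 passed with 3 arrays above the percentile and Col5a2 with 5, while Itgae had 2 and Col10a1, Col12a1 and Itgal had 1 each.

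Cumulus cells are the granulosa cells that enclose the oocyte in the antral follicle. They came from wildtype females, from Bmp15-/- females, which lack the oocyte growth factor BMP15, and from Bmp15-/-Gdf9+/- females, called DM in the labels, which in addition have only 1 intact copy of the gene for the related oocyte factor GDF9. All females were 4 to 5 months old on a B6/129 background and had received 5 IU of equine chorionic gonadotropin, which stimulates follicle growth, 48 hours before collection. Complexes from large antral follicles were collected in medium with 5 µM milrinone, which holds oocytes in meiotic arrest, and the oocytes were stripped off. There were 3 arrays per genotype, each from 75 to 100 complexes pooled from 3 to 4 mice. The mutations are carried by the whole animal, not by the oocyte or the cumulus cells alone.

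Laminins are trimers of an alpha, a beta and a gamma chain, and collagen chains assemble as triple helices, those of type IV into the sheet of basement membranes. Nidogens and perlecan (Hspg2) link the laminin and collagen IV networks to each other. Integrins are surface receptors of an alpha and a beta subunit that bind these proteins, and TIMPs inhibit the metalloproteinases that degrade them. In the follicle, granulosa cells rest on a basement membrane at the outer edge and also deposit basement membrane material among themselves, while cumulus cells build a hyaluronan-rich matrix at ovulation.

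All levels given are log2 values of 1 probe set, on which a step of 1 is a doubling, and levels of different genes cannot be set against each other on arrays. A gene was called at a limma adjusted p (Benjamini-Hochberg, over the 13447 genes) under 0.05, and ± marks the standard error of the fit. Pearson's r over all probe sets was 0.988 or more between arrays of 1 genotype and 0.975 or more across genotypes. Cumulus and granulosa markers, 14 of them measured, had mean levels from 10.3 to 10.6 on the 9 arrays. In DM 3 of the 14 (21.4%) were called higher and 5 (35.7%) lower, beside 9.95% and 18.2% of all genes tested. The log2 summed level of these markers was 15.96 to 16.01 in wildtype, 15.94 to 15.98 in Bmp15-/- and 15.67 to 15.92 in DM. Bmp15, an oocyte transcript, had levels of 5.10, 9.58 and 8.41 on the wildtype arrays in 1 of its probe sets, 5.08 to 5.10 on the Bmp15-/- arrays and 5.05 to 5.09 on the DM arrays. The library labelled wildtype 1 thus lay at the mutant level, so Bmp15 does not check its label. It was also low for oocyte markers, whose log2 summed level was 9.77 there, 11.61 on wildtype 2 and 10.44 on wildtype 3. Bmp15 itself is part of that sum. The difference between the 3' and 5' control probe sets of Gapdh was 0.52 to 0.59 in wildtype, 0.66 to 0.73 in Bmp15-/- and 0.79 to 0.95 in DM, and its part in the results below was not tested. For beta-actin it was 1.87 to 1.90, 1.85 to 1.92 and 1.85 to 2.12, with the genotypes overlapping.

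In DM, 16 of the 64 members were higher than in wildtype and 7 were lower. These are 25% and 10.9% of the members, beside 9.95% higher and 18.2% lower among all genes tested, or 28.1% called in either direction. In Bmp15-/-, 4 members (6.25%) were higher and 4 (6.25%) lower than in wildtype, beside 3.29% higher, 5.78% lower and 9.07% in either direction among all genes. Between the mutants, 4 members (6.25%) were higher in DM than in Bmp15-/- and 0 were lower in the limma fit, beside 1.64% higher, 1.61% lower and 3.25% in either direction among all genes. In that comparison 13 members had an unadjusted limma p under 0.05, in either direction. The share of all genes at that unadjusted threshold was not counted, so no excess is read from this number. The median log2 change of the 64 was 0.11 in DM and 0.09 in Bmp15-/- against wildtype, beside -0.06 and -0.04 over all genes. Calls that were lost when a single array was left out are given below with the highest adjusted p that such an omission produced. Each of the 8 members called in Bmp15-/- was called in the same direction in DM, but both comparisons use the same 3 wildtype arrays. The share of lower calls depended on the scaling: quantile normalization gave 18 higher and 4 lower in DM and 7 higher and 2 lower in Bmp15-/-, and centring each array on its tested genes gave 19 and 5, and 8 and 3. Of all genes called in DM, 1338 of 3780 were higher, and 1738 of 3596 after quantile normalization and 2090 of 3661 after centring. In Bmp15-/- these were 442 of 1219, 590 of 1110 and 810 of 1271. The scaling thus moved all genes as well as the members. Centring moved the median of all genes in DM to 0.07, and the changes below are on the deposited scale. Without wildtype 1, 11 members were higher and 4 lower in DM, and 3 higher and 2 lower in Bmp15-/-. Over all genes that fit called 970 higher of 2655 calls in DM and 228 higher of 593 in Bmp15-/-.

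**Figure D1:**
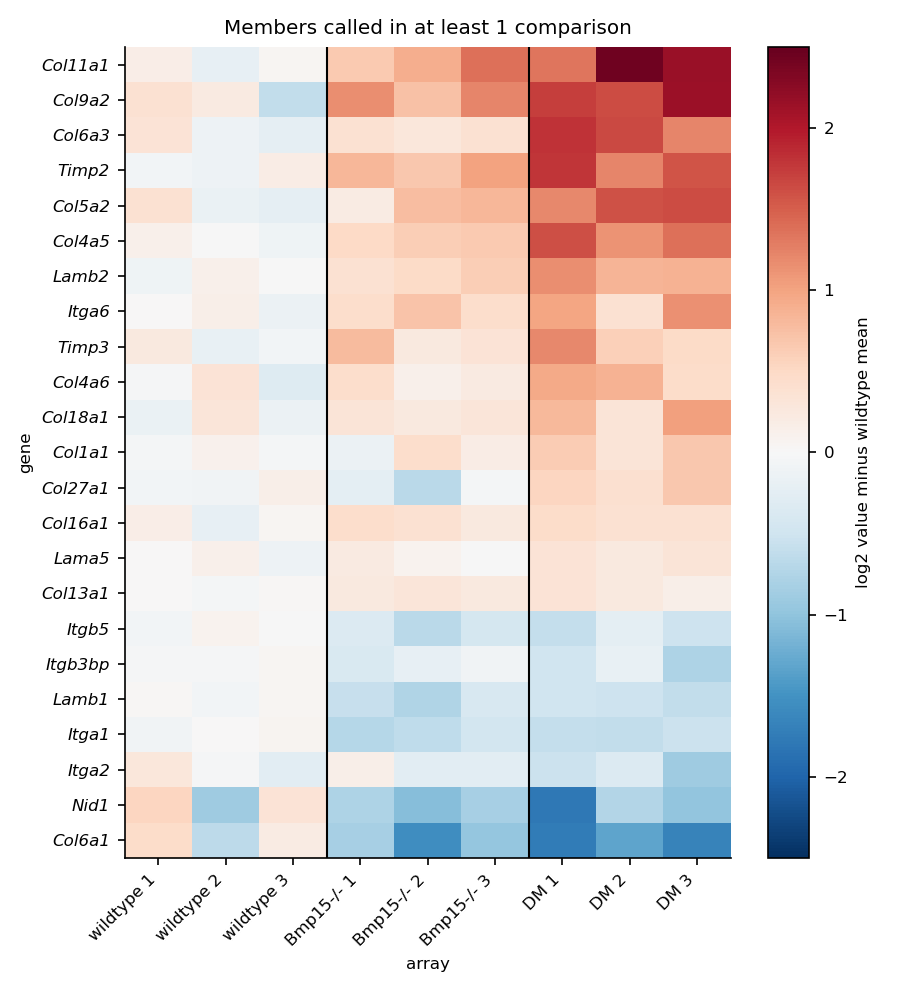
Heat map of the 23 members called in at least 1 comparison, in rows, on the 9 arrays, in columns, with colour giving the log2 value minus the mean of the wildtype arrays. Col11a1, Col9a2, Col6a3 and Timp2 are darkest red on the DM arrays, and Col6a1 and Nid1 are blue on the mutant arrays. On wildtype 2, Col6a1 is less blue than on any mutant array, while Nid1 is as blue as on some of them.

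Beside these calls, markers of other cells moved as follows, and their part in the results was not tested. Theca and stroma markers, 6 of 12 measured ones above the filter, had a log2 summed level of 12.12 to 12.23 in wildtype, 12.30 to 12.44 in Bmp15-/- and 12.72 to 12.85 in DM. Such a sum weighs the brightest genes most. The mean log2 level of the 12 was 6.06 to 6.07 in wildtype, 6.18 to 6.20 in Bmp15-/- and 6.21 to 6.33 in DM. In DM 3 of the 6 (50%) were higher, among them Pdgfra (2.96-fold), and 1 (16.7%) was lower, beside 9.95% and 18.2% of all genes. Dcn, Lum, Tcf21, Mfap4 and Enpep did not exceed the 40th percentile on any array. Of the smooth muscle markers, 6 of 8 were tested and only Acta2 was called (4.26-fold higher in DM), the log2 summed level was 8.60 to 8.68 in wildtype, 8.62 to 8.79 in Bmp15-/- and 9.03 to 9.16 in DM, and Cnn1 and Actg2 were below the percentile on every array. Endothelial markers gave 0 calls among 3 tested, with Pecam1, Tek, Tie1, Kdr and Emcn below the percentile on every array, and immune markers 0 calls among 4 tested in the limma fit. In that fit 0 of the 3 endothelial markers had an unadjusted p under 0.05 in any comparison. Of the immune markers, 1 of the 4 did in Bmp15-/- against wildtype, and 0 in either comparison with DM. Of 6 tested surface epithelium markers, the keratins Krt8 and Krt18 were higher in DM and 4 were not called. These are 33.3% higher and 0% lower, beside 9.95% and 18.2% of all genes. Krt19 and Msln were below the percentile on every array, and the log2 summed level of that list was 9.50 to 9.66 in wildtype, 9.89 to 10.22 in Bmp15-/- and 10.05 to 10.11 in DM. Oocyte markers had a log2 summed level of 9.77 to 11.61 in wildtype, 9.53 to 11.05 in Bmp15-/- and 9.35 to 9.91 in DM. That list includes Bmp15 and Gdf9, the genes mutated here, so its sum is not independent of genotype. In each mutant 1 of 14 (7.14%) was called lower, beside 5.78% of all genes in Bmp15-/- and 18.2% in DM. Erythroid markers, 2 of them tested, had 7.76 to 8.42 in wildtype, 6.55 to 7.32 in Bmp15-/- and 6.46 to 6.74 in DM, and Alas2 was called lower in both mutants. In RNA from pooled cells, a change in the share of a cell type and a change of RNA per cell cannot be told apart.

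The upstream sequences of 5 genes that rose in DM are printed. Col4a5 and Col4a6 are neighbours that both rose, Lamb2 and Timp2 had the smallest p of their families in DM against wildtype, and Col6a3 had the smallest p of all members between the mutants. Col11a1 and Col9a2 rose more and are not printed. The printed sequences are from RefSeq's table of build GRCm38.p6 and cover bases 250 to 51 before each gene's start, on the gene's own strand, 5′ to 3′. The regions are chrX:141475169-141475368 (plus strand) for Col4a5, chrX:141474127-141474326 (minus strand) for Col4a6, chr1:90844022-90844221 (minus strand) for Col6a3, chr9:108479612-108479811 (plus strand) for Lamb2 and chr11:118355462-118355661 (minus strand) for Timp2, and they overlap no annotated gene.
Col4a5: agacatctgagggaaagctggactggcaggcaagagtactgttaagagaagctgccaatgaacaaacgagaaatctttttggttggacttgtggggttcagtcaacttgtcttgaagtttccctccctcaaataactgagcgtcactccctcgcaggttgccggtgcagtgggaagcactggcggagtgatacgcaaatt
Col4a6: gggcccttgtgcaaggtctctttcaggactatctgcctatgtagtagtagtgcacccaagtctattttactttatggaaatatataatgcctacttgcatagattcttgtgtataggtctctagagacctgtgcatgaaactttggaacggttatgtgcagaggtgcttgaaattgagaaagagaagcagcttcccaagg
Col6a3: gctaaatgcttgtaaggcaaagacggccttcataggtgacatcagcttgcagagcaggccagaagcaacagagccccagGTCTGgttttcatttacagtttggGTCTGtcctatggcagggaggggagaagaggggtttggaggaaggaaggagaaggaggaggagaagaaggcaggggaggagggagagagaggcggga
Lamb2: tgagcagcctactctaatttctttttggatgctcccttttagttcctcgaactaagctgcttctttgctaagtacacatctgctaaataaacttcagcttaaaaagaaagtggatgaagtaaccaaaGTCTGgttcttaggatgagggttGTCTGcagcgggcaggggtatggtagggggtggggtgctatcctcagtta
Timp2: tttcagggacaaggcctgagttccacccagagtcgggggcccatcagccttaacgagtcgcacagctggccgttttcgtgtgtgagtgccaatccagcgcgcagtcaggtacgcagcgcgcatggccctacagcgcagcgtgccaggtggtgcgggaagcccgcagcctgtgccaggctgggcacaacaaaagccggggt
Capitals mark matches to CAGAC, the SMAD-binding element in its short form, on either strand, where it reads GTCTG. It occurs 2 times in the Col6a3 window, 2 times in the Lamb2 window and 0 times in the other 3. Of the 49 tested members with a window, 23 (46.9%) held it, beside 35.8% of all 32851 windows of the same length. GGCGCC, a GC-rich SMAD motif, occurred in 8 of the 49 (16.3%, beside 7.15% of all windows), and TGANTCA, the AP-1 motif with any middle base, in 1 (2.04%, beside 5.57%). Neither is in the 5 windows shown. The 32851 windows were not filtered by expression, unlike the members, so these shares compare unlike sets. A match describes these letters and shows no binding.

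Collagen chains made up most of the rises in DM, with 11 of 29 tested chains higher and 1 lower, and a median log2 change of 0.21. These are 37.9% and 3.45% of the chains, beside 9.95% higher and 18.2% lower among all genes, and they include Col5a2, which passed the filter through the mutant arrays. In Bmp15-/-, 2 chains (6.90%) were higher and 1 (3.45%) was lower, beside 3.29% and 5.78%. The chains that rose in DM came from several collagen types: basement membrane (Col4a5, Col4a6, Col18a1), fibrillar (Col11a1, Col5a2, Col1a1, Col27a1), microfibrillar (Col6a3), and fibril-associated or transmembrane (Col9a2, Col16a1, Col13a1).

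Of the 6 collagen IV chains, Col4a5 and Col4a6, whose products form triple helices with each other, were the 2 called higher in DM. Col4a5 was at 9.54, 9.40 and 9.31 in wildtype, 9.92, 10.04 and 10.08 for Bmp15-/- and 11.02, 10.54 and 10.80 for DM. The 3 genotypes did not overlap and each step was called: 0.59 ± 0.13 from wildtype to Bmp15-/- (adjusted p = 0.0218), 0.77 ± 0.13 from Bmp15-/- to DM (0.0144) and 1.37 ± 0.13, or 2.58-fold, from wildtype to DM (0.000126). The first step was lost without wildtype 2 or 3 or Bmp15-/- 2 or 3 (adjusted p up to 0.0812) and as the mean of its probe sets (0.43, 0.0711), and the second without Bmp15-/- 1 or 2 (up to 0.0611) and on the 6 arrays compared (0.0595). Col4a6 was at 5.31, 5.67 and 5.02 in wildtype, 5.77, 5.45 and 5.55 for Bmp15-/- and 6.28, 6.20 and 5.78 for DM. All its DM arrays lay above all wildtype arrays (0.76 ± 0.18, adjusted p = 0.0137), and the Bmp15-/- arrays lay between and overlapped with wildtype (0.26 ± 0.18, 0.396). The call in DM was just lost without DM 1 (0.0506). The 2 genes lie next to each other on chromosome X in opposite directions, with their starts 1343 bases apart.

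Another pair that is arranged this way, Col4a1 and Col4a2, whose starts are 21 bases apart and whose products form the most common collagen IV helix, was not called. Col4a1 was at 5.91, 6.14 and 5.73 in wildtype, 5.91, 6.11 and 6.08 for Bmp15-/- and 6.08, 6.04 and 5.99 for DM (0.11 ± 0.11, adjusted p = 0.490). Col4a2 was at 4.51, 5.14 and 4.86 in wildtype, 4.81, 4.89 and 4.92 for Bmp15-/- and 5.28, 4.95 and 5.54 for DM (0.42 ± 0.18, adjusted p = 0.107). It passed the filter through 3 arrays, and was called without DM 2 (adjusted p = 0.0340). Col4a3 and Col4a4, which pair with Col4a5 in other basement membranes, changed by 0.11 ± 0.14 and 0.83 ± 0.31 in DM, and Col4a4 varied widely, from 5.96 to 7.25 over the DM arrays (adjusted p = 0.0749). Col4a4 was called higher in DM as the mean of its probe sets (0.44, 0.0263), after centring (0.96, 0.0471) and without DM 1 (1.10, 0.0368).

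**Figure D2:**
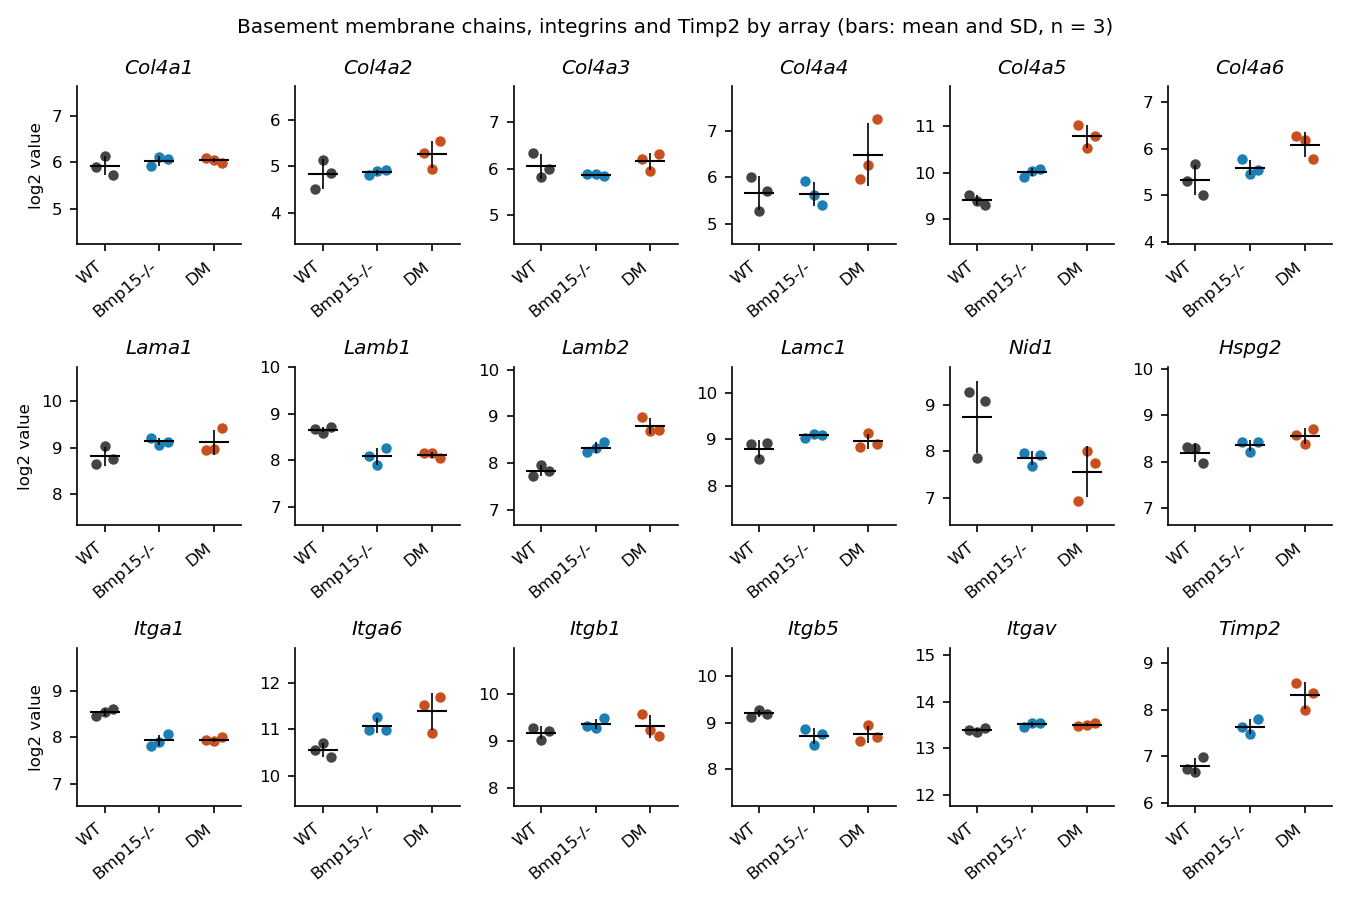
Log2 value of 18 genes on each array, 3 points per genotype, with the mean as a horizontal bar and the SD as a vertical bar, and a separate axis range for each gene. Col4a5, Lamb2 and Timp2 step up from wildtype to Bmp15-/- to DM, Lamb1, Itga1 and Itgb5 are lower in both mutants, and Itgav and Itgb1 were not called.

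In collagen VI, a microfibril built from alpha1, alpha2 and alpha3 chains, 2 chains moved in opposite directions. Col6a3 was at 6.36, 5.89 and 5.79 in wildtype, 6.40, 6.29 and 6.39 for Bmp15-/- and 7.81, 7.67 and 7.24 for DM. The DM arrays stood apart from both other genotypes, by 1.56 ± 0.18 from wildtype (2.95-fold, adjusted p = 0.000353) and 1.21 ± 0.18 from Bmp15-/- (0.00975), while Bmp15-/- and wildtype differed by 0.35 ± 0.18 (0.244). Col6a1 was at 8.75, 7.62 and 8.48 in wildtype, 7.45, 6.74 and 7.31 for Bmp15-/- and 6.54, 6.96 and 6.62 for DM. Every mutant array lay below every wildtype array, by -1.12 ± 0.28 in Bmp15-/- (adjusted p = 0.0407) and -1.58 ± 0.28 in DM (0.00356), and the mutants differed by -0.46 ± 0.28 (0.411). The call in Bmp15-/- was lost without any 1 of wildtype 1 and 3, the Bmp15-/- arrays and DM 1 (up to 0.125) and after quantile normalization (0.0583), and the call in DM was kept. It was the only collagen chain called lower. Col6a2, its neighbour on chromosome 10, differed by -0.07 ± 0.11 in DM (adjusted p = 0.659, 0.06 after centring). Col6a1 and Col6a3 were each read by 1 probe set alone.

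The fibrillar chain Col11a1 had the largest rise in DM among the members. Its level was 6.47, 6.09 and 6.35 in wildtype, 6.96, 7.22 and 7.69 for Bmp15-/- and 7.64, 8.74 and 8.46 for DM. It rose by 1.98 ± 0.27 in DM (3.93-fold, adjusted p = 0.000958), while the 0.98 ± 0.27 in Bmp15-/- missed the threshold (0.0545) although no array overlapped with wildtype. Its dimmer probe set rose in Bmp15-/- when tested on its own (1.07, adjusted p = 0.00973), as did the mean of both (0.0135). Col5a2, which encodes a chain of the closely related type V collagen, was at 4.94, 4.38 and 4.32 in wildtype, 4.76, 5.31 and 5.39 for Bmp15-/- and 5.76, 6.14 and 6.18 for DM. Its change of 1.48 ± 0.21 in DM (adjusted p = 0.00115) starts from a level under the 40th percentile on all wildtype arrays, so it passed the filter through the mutant arrays. Col5a1, the usual partner chain of Col5a2, changed by 0.19 ± 0.12 (adjusted p = 0.265).

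Col9a2, a chain of the fibril-associated type IX collagen known from cartilage, was at 5.92, 5.75 and 4.91 in wildtype, 6.69, 6.26 and 6.75 for Bmp15-/- and 7.25, 7.15 and 7.67 for DM. It rose in both mutants, by 1.04 ± 0.26 (adjusted p = 0.0367) and 1.83 ± 0.26 (0.00102), with no overlap with wildtype. The call in Bmp15-/- was lost without wildtype 2 or 3 or any 1 of the Bmp15-/- arrays (up to 0.125). The call was also lost with the replicate block (0.0596). Of the other type IX chains, Col9a3 differed by -0.01 ± 0.08 in DM (0.12 after centring), which was not called, and Col9a1 was below the filter.

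Col27a1, a fibrillar chain, was at 8.24, 8.20 and 8.45 in wildtype, 8.05, 7.63 and 8.24 for Bmp15-/- and 8.84, 8.70 and 8.97 for DM. Its DM arrays lay above all others, by 0.86 ± 0.15 over Bmp15-/- (adjusted p = 0.0223) and 0.54 ± 0.15 over wildtype (0.0285). The first was lost without Bmp15-/- 1 or 2 or DM 1 or 3 (up to 0.0626) and the second without wildtype 1 or 2 or DM 1 or 3 (up to 0.0919). Smaller rises in DM were called for Col18a1 (0.72 ± 0.18), Col1a1 (0.54 ± 0.15), Col16a1 (0.41 ± 0.11) and Col13a1 (0.25 ± 0.08). Of these, Col18a1 and Col1a1 lost the call without wildtype 1 or 3 or DM 1 or 3 (up to 0.0634 and 0.0787), Col16a1 without wildtype 2 or DM 1 (up to 0.0622), and Col13a1 without any 1 array other than DM 3 (up to 0.133). Col1a1 was also not called as the mean of its probe sets (0.19, 0.301), nor was Col13a1 after quantile normalization (0.0552) or with the replicate block (0.0747). The rise of Col1a1, the main chain of type I collagen, rested on its brighter probe set, since the other changed by -0.15 (adjusted p = 0.486). Its partner chain Col1a2 was below the filter, and Col3a1, the type III chain abundant in stroma, changed by 0.05 ± 0.13.

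**Figure D3:**
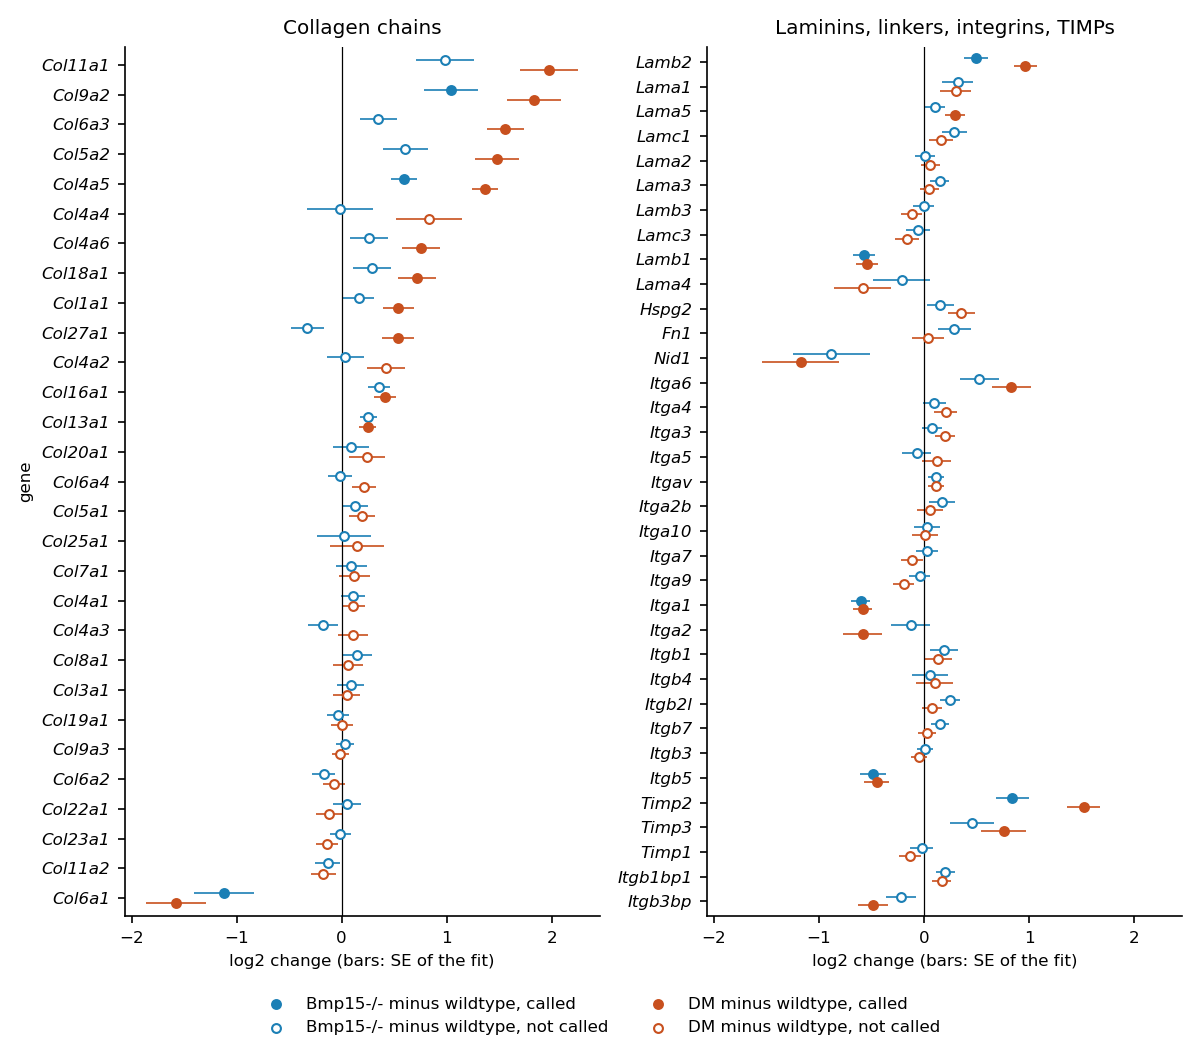
Log2 change from wildtype in Bmp15-/- (blue) and DM (orange) for the 64 tested members, with horizontal bars for the standard error of the fit and filled points for changes called at an adjusted p under 0.05. Collagen chains are on the left, where filled orange points lie to the right of 0 except Col6a1, and the other families are on the right.

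Of the 10 laminin chains, the 2 beta chains that can take each other's place in a trimer moved in opposite directions. Lamb2 was at 7.73, 7.95 and 7.82 in wildtype, 8.23, 8.31 and 8.45 for Bmp15-/- and 8.99, 8.69 and 8.71 for DM. The 3 genotypes did not overlap, and it rose by 0.50 ± 0.11 in Bmp15-/- (adjusted p = 0.0266) and 0.96 ± 0.11 in DM (1.95-fold, 0.000394), while the step between the mutants, 0.47 ± 0.11, missed the threshold (0.0563). The call in Bmp15-/- was lost without any 1 of the wildtype arrays or without Bmp15-/- 2 or 3 (up to 0.100), and with the replicate block (0.0534). Lamb1 was at 8.68, 8.59 and 8.71 in wildtype, 8.09, 7.90 and 8.27 for Bmp15-/- and 8.16, 8.15 and 8.05 for DM. It fell by 0.57 on the log2 scale in Bmp15-/- (SE 0.10, adjusted p = 0.0110) and by 0.54 in DM (SE 0.10, 0.00445), with a difference of 0.03 ± 0.10 between the mutants. All 3 tested probe sets of Lamb1 were lower in DM and called when each was tested on its own.

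Of the alpha and gamma chains that complete these trimers, 1 was called. Lama1 was at 8.64, 9.04 and 8.77 in wildtype, 9.22, 9.07 and 9.14 for Bmp15-/- and 8.95, 8.98 and 9.43 for DM, and its changes of 0.32 ± 0.15 and 0.30 ± 0.15 were not called (adjusted p = 0.202 and 0.161). Lamc1, the gamma chain of most laminins, was at 8.89, 8.57 and 8.91 in wildtype, 9.03, 9.10 and 9.10 for Bmp15-/- and 8.83, 9.13 and 8.90 for DM, with differences of 0.29 ± 0.12 and 0.16 ± 0.12 (0.148 and 0.324) and, in DM, -0.13 as the mean of its probe sets. Lama5 rose by 0.30 ± 0.10 in DM (adjusted p = 0.0447), but by 0.04 as the mean of its probe sets (0.774), and 6 single arrays decided the call (wildtype 1 and 3, Bmp15-/- 2 and the DM arrays, up to 0.151). The remaining chains, Lama2, Lama3, Lama4, Lamb3 and Lamc3, were not called in any comparison, and Lama4 ranged from 4.59 to 5.67 over the DM arrays. A dimmer probe set of Lama3 rose by 0.81 in DM when tested on its own (adjusted p = 0.0230).

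Of the nidogens, which bind the laminin gamma chain, Nid1 was called lower in DM on weak support, and Nid2 was not measured above the filter. Nid1 was at 9.28, 7.86 and 9.09 in wildtype, 7.97, 7.68 and 7.92 for Bmp15-/- and 6.95, 8.00 and 7.75 for DM. It fell by 1.17 in DM (SE 0.37, adjusted p = 0.0396), the only called member whose DM and wildtype arrays overlapped, with wildtype 2 low. The call was kept only when wildtype 2 or DM 2 was the array left out (up to 0.136 without another), and it was lost as the mean of its probe sets (-0.42, 0.0515), after quantile normalization (0.0583), with the replicate block (0.0586) and on the 6 arrays compared (0.0792). The -0.88 ± 0.37 in Bmp15-/- was not called (0.163), but was without wildtype 2 (-1.32, adjusted p = 0.0389). Wildtype 2 was also the lowest wildtype array for Col6a1 and the highest for oocyte markers, and the part of oocyte RNA was not tested. Nid2 lay below the filter, with 4.39, 4.84 and 4.88 in wildtype, 4.09, 4.01 and 4.11 for Bmp15-/- and 3.83, 4.03 and 3.93 for DM. No array was above its 40th percentile, so no difference was read from these values.

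Hspg2, the perlecan core protein, was at 8.32, 8.30 and 7.97 in wildtype, 8.42, 8.21 and 8.42 for Bmp15-/- and 8.58, 8.37 and 8.70 for DM. Its change of 0.35 ± 0.13 in DM was just short of a call (adjusted p = 0.0639), and was called after quantile normalization (0.0288), after centring (0.0332) and without DM 2 (0.0329). Fn1, fibronectin, was at 6.22, 6.68 and 6.68 in wildtype, 6.63, 6.88 and 6.94 for Bmp15-/- and 6.33, 6.68 and 6.68 for DM. Its DM and wildtype arrays overlapped (0.04 ± 0.16, adjusted p = 0.884).

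Among the integrins, 3 of 11 alpha subunits (27.3%) and 1 of 6 beta subunits (16.7%) were called in DM, shares at or under the 28.1% of all genes. Itga1, the alpha subunit of a collagen and laminin receptor, was at 8.46, 8.54 and 8.61 in wildtype, 7.83, 7.91 and 8.07 for Bmp15-/- and 7.94, 7.92 and 8.00 for DM. It fell by 0.60 in Bmp15-/- (SE 0.09, adjusted p = 0.00568) and by 0.58 in DM (SE 0.09, 0.00169), and the mutants differed by 0.02 ± 0.09. Itga2, another collagen-binding alpha subunit and the neighbour of Itga1 on chromosome 13, was at 7.02, 6.69 and 6.47 in wildtype, 6.86, 6.47 and 6.47 for Bmp15-/- and 6.19, 6.39 and 5.84 for DM. It fell by 0.58 in DM (SE 0.18, adjusted p = 0.0400) and differed by -0.13 ± 0.18 in Bmp15-/- (0.704). The call in DM was lost without wildtype 1 or 2, Bmp15-/- 2 or 3, or DM 1 or 3 (up to 0.137), and after quantile normalization (0.0568) or centring (0.0574).

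Itga6, the alpha subunit of the main laminin receptors, was the integrin subunit that rose. It was at 10.57, 10.70 and 10.40 in wildtype, 10.99, 11.26 and 10.99 for Bmp15-/- and 11.54, 10.93 and 11.70 for DM. All mutant arrays were above all wildtype arrays, and the change was called in DM (0.83 ± 0.19, adjusted p = 0.00987) and not in Bmp15-/- (0.52 ± 0.19, 0.109). Its dimmer probe set, tested on its own, rose in Bmp15-/- by 0.86 (adjusted p = 0.00743). Among the other laminin-binding subunits, Itga3 changed by 0.20 ± 0.10 in DM (0.147), while a dimmer probe set of it rose by 0.58 (0.0100), and Itga7 differed by -0.11 ± 0.10 (0.02 after centring).

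Itgb1, the beta subunit that pairs with Itga1, Itga2, Itga3, Itga5, Itga6 and most other alpha subunits, was at 9.29, 9.02 and 9.23 in wildtype, 9.33, 9.29 and 9.48 for Bmp15-/- and 9.58, 9.24 and 9.11 for DM. Its genotypes overlapped, with changes of 0.19 ± 0.13 and 0.14 ± 0.13 that were not called (adjusted p = 0.386 and 0.480), and -0.05 in DM with its most variable probe set. Itgb5, a beta subunit that pairs with Itgav in a vitronectin receptor, was at 9.13, 9.28 and 9.19 in wildtype, 8.86, 8.53 and 8.76 for Bmp15-/- and 8.61, 8.96 and 8.68 for DM. It fell by 0.49 in Bmp15-/- (SE 0.12, adjusted p = 0.0367) and by 0.45 in DM (SE 0.12, 0.0203), with 0.03 ± 0.12 between the mutants. The call in Bmp15-/- was lost without any 1 of the wildtype arrays or Bmp15-/- 2 or 3 (up to 0.120), after quantile normalization (0.0634) or centring (0.0562), with the replicate block (0.0664) and with other choices of probe set (0.0873 and 0.114). That in DM was lost without wildtype 2 or 3 or DM 1 or 3 (up to 0.0718) and as the mean of its probe sets (0.0598). Itgav was at 13.41, 13.36 and 13.44 in wildtype, 13.45, 13.55 and 13.55 for Bmp15-/- and 13.48, 13.51 and 13.56 for DM, a change of 0.11 ± 0.08 in DM (0.299), on arrays whose highest value was 14.53. The other beta subunits tested, Itgb2l, Itgb3, Itgb4 and Itgb7, and the fibronectin receptor subunits Itga4 and Itga5, were not called in any comparison. Of the 2 genes caught by their spelling, Itgb3bp differed by -0.48 ± 0.14 in DM (adjusted p = 0.0329) and Itgb1bp1 was not called. The Itgb3bp value rested on its brightest probe set: the most variable one gave -0.03 (0.976) and the mean -0.13 (0.525), and the call was also lost without any 1 of the wildtype arrays or DM 1 or 3 (up to 0.0954).

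The 3 TIMPs gave 3 different results. Timp2 was at 6.72, 6.67 and 6.99 in wildtype, 7.63, 7.47 and 7.80 for Bmp15-/- and 8.58, 8.00 and 8.36 for DM. The genotypes did not overlap, and it rose by 0.84 ± 0.16 in Bmp15-/- (adjusted p = 0.0130) and by 1.52 ± 0.16 in DM (2.87-fold, 0.000224). The call in Bmp15-/- was just lost without wildtype 2 or Bmp15-/- 3 (up to 0.0567). All 4 of its tested probe sets rose in DM when tested on their own, by 0.57 to 1.52. The further step from Bmp15-/- to DM, 0.68 ± 0.16, was called narrowly (0.0495), was kept only when DM 2 was the array left out (up to 0.159 without another), and was seen only in that brightest probe set: the mean of its probe sets gave 0.09 (0.691), with 2 of the other 3 slightly below 0. Timp3, which is bound in the matrix, was at 6.67, 6.23 and 6.35 in wildtype, 7.20, 6.67 and 6.75 for Bmp15-/- and 7.62, 7.01 and 6.89 for DM. It rose in DM (0.76 ± 0.21, adjusted p = 0.0259) and not by the test in Bmp15-/- (0.46 ± 0.21, 0.208). Every mutant array lay above the highest wildtype array, but Bmp15-/- 2 only barely so (6.668 beside 6.667 on wildtype 1). The call in DM was lost without wildtype 2 or 3 or DM 1 (up to 0.0896) and with its most variable probe set (0.93, 0.125). Timp1 was at 7.02, 6.84 and 6.78 in wildtype, 6.89, 6.84 and 6.84 for Bmp15-/- and 6.56, 6.91 and 6.76 for DM, with all genotypes overlapping (-0.14 ± 0.11, 0.378).

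Of the 4 members called lower in both mutants, Lamb1, Itga1 and Itgb5 had DM and Bmp15-/- means that differed by 0.02 to 0.03, with standard errors of 0.09 to 0.12, and Col6a1 was lower in DM by a difference of -0.46 ± 0.28 that was not called. For Col6a3, Col4a5, Col27a1 and Timp2 the difference between the mutants was itself called, in each case as a higher level in DM. In a limma fit on the 6 arrays compared, only Col6a3 kept that call (adjusted p = 0.0595 for Col4a5, 0.0765 for Col27a1 and 0.119 for Timp2).

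Genes that act on or beside these proteins were read in 5 lists, shown in the bar chart of called shares. Of 26 tested genes for collagen folding and crosslinking, 2 were higher and 6 lower in DM, and 1 higher and 3 lower in Bmp15-/-. The median log2 change of the list in DM was -0.07, beside -0.06 over all genes. The calls in DM are 7.69% higher and 23.1% lower, beside 9.95% and 18.2% of all genes, and in Bmp15-/- 3.85% and 11.5%, beside 3.29% and 5.78%. The falls included Lox, the lysyl oxidase that crosslinks collagen and elastin, by 3.41 on the log2 scale (SE 0.21, 10.6-fold, adjusted p = 1.92e-05). Also lower were the collagen prolyl hydroxylase subunits P4ha1 (2.86-fold, 3.93e-05) and P4ha2 (5.60-fold, 9.91e-05) and the lysyl oxidase relative Loxl1 (3.06-fold, 0.00206). Lox and P4ha1 had also fallen in Bmp15-/- (adjusted p = 0.000153 and 0.00564), P4ha1 not as the mean of its probe sets (0.0565). P4ha2 had fallen there too, and was called in every setting run (adjusted p up to 0.0339).

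Matrix proteases and inhibitors other than the TIMPs counted 10 higher and 3 lower of 28 in DM, with a median change of 0.17, and 3 higher and 1 lower in Bmp15-/-. These are 35.7% higher and 10.7% lower in DM, beside 9.95% and 18.2% of all genes. In Bmp15-/- they are 10.7% and 3.57%, beside 3.29% and 5.78%. Mmp2, the gelatinase whose activation and inhibition both involve TIMP2, rose 2.79-fold in DM (adjusted p = 0.00176). Reck, a membrane-anchored metalloproteinase inhibitor, rose 2.16-fold (0.0104) and the aggrecanase Adamts5 1.99-fold (0.00314). Adamts9, another secreted protease of that family, fell 3.62-fold (5.22e-06).

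Other matrix proteins counted 9 higher and 4 lower of 32 in DM, with a median change of 0.20, and 4 higher and 1 lower in Bmp15-/-. These are 28.1% higher and 12.5% lower in DM, beside 9.95% and 18.2% of all genes. In Bmp15-/- they are 12.5% and 3.13%, beside 3.29% and 5.78%. The microfibril protein Fbn2 rose 2.64-fold (adjusted p = 0.000107), the matricellular proteins Ccn2 and Ccn1 rose 3.65-fold (0.000129) and 3.30-fold (0.00172), and Itih5, of the family whose heavy chains bind hyaluronan, rose 7.88-fold (0.000133). Integrin adhesion partners, among them proteins that couple integrins to actin, counted 7 higher and 7 lower of 30 in DM. Their median change in DM was -0.03, and 1 was higher and 2 lower in Bmp15-/-. Each direction in DM is 23.3% of the list, beside 9.95% higher and 18.2% lower among all genes. In Bmp15-/- the shares are 3.33% and 6.67%, beside 3.29% and 5.78%. Vinculin (Vcl) rose 1.84-fold (0.00121), the tensin Tns3 2.27-fold (0.00206) and Kank2 1.65-fold (0.000858), while the parvin Parvb fell 2.30-fold (0.000480).

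Matrix receptors other than integrins counted 6 higher and 1 lower of 20 in DM, with a median change of 0.06, and 2 higher and 0 lower in Bmp15-/-. In DM these are 30% higher and 5% lower, beside 9.95% and 18.2% of all genes. In Bmp15-/- they are 10% and 0%, beside 3.29% and 5.78%. The 4 with the smallest p belong to the dystroglycan complex, which binds laminin and perlecan, and to the glypicans: dystrophin (Dmd, 1.57-fold, adjusted p = 0.00110), dystroglycan (Dag1, 1.52-fold, 0.00428), the sarcoglycan Sgce (1.89-fold, 0.00590) and the heparan sulfate proteoglycan Gpc4 (1.58-fold, 0.00365). All 4 rose in DM, and Dmd and Gpc4 also in Bmp15-/- (0.0238 and 0.0147). Those calls in Bmp15-/- were lost without any 1 of the wildtype or Bmp15-/- arrays for Dmd (up to 0.0861) and without wildtype 2 or Bmp15-/- 3 for Gpc4 (up to 0.0624).

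**Figure D4:**
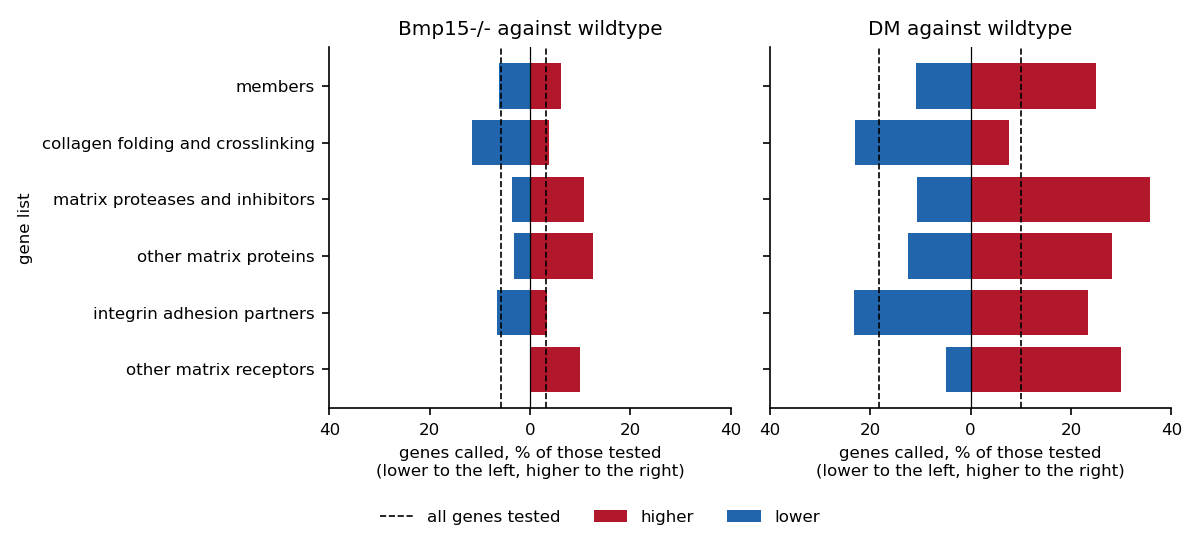
Percent of tested genes called lower (blue, to the left of 0) and higher (red, to the right) in Bmp15-/- and in DM against wildtype, for the 64 members and 5 lists of related genes, with dashed lines at the percent called among all 13447 genes. In DM the bars of higher calls pass the dashed line except for collagen folding and crosslinking, and the bars of lower calls pass it for that list and the integrin adhesion partners.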

How the data were processed

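Values were log2 expression per probe set (45101 probe sets, 9 arrays), deposited by the authors. The submitters' processing notes name RMA and affy, with no version given in the sources used here. Background correction and between-array normalization are part of RMA, which compresses changes of dim transcripts. Per the labels' protocols, 10 ng of total RNA was amplified in 2 rounds.

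Probe sets with 1 gene in the platform annotation were named, with symbols updated through a RefSeq table (GRCm38.p6). Of 18194 genes, 13447 passed the filter. Genotype was the only term of 1 fit over all arrays (limma 3.58.1, lmFit and eBayes, R 4.3.3, 6 residual degrees of freedom), with 2-sided p-values, and the script was tested on simulated data. The number of arrays limits the precision. Alternatives covered the filter, probe set choice, normalization, floor, eBayes options, arrays used, the replicate number as a block and leaving out each array.

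Members, lists and motifs were chosen with earlier results of these data known. Full values were given to the 8 members with the smallest p per comparison, their assembly partners, the TIMPs, nidogens, Hspg2 and Fn1, and up to 4 called genes per list. The markers named were chosen after their values were seen. Replicate numbers came from the labels and did not pair the arrays.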

Additional observations from a re-analysis of the deposited data

How the results depend on the processing

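No called value of a member or named list gene changed sign in the alternatives run. Values that were not called did so in 147 cases, from 74 combinations of gene and comparison, and the largest of their reported changes was 0.29 in size. In DM against wildtype, centring turned Col9a3 (to 0.12), Col6a2 (0.06) and Itga7 (0.02) positive, and the mean of its probe sets turned Lamc1 to -0.13. The numbers of members called, 8 in Bmp15-/-, 23 in DM and 4 between the mutants, ranged over the other settings with all 9 arrays from 6 to 11, from 18 to 24 and from 3 to 5. Fits on the 6 arrays compared gave 9, 18 and 1, the last being Col6a3. Leaving out 1 array at a time gave 2 to 10, 12 to 23 and 1 to 7. The shares of all genes called in those fits ran from 3.31% to 12.4%, from 19.7% to 30.9% and from 0.781% to 6.86%. In Bmp15-/- the count was 5, 4 and 3 without wildtype 1, 2 and 3, and 3 and 2 without Bmp15-/- 2 and 3. In DM it was 15 without wildtype 1, wildtype 3 or DM 3 and 12 without DM 1. Between the mutants it was 1 without Bmp15-/- 1 or 2, 2 without DM 3 and 7 without DM 2. Calls held under every setting in which the gene was tested for 2 members in Bmp15-/- (Itga1, Lamb1), 11 in DM (Col11a1, Col4a5, Col5a2, Col6a1, Col6a3, Col9a2, Itga1, Itga6, Lamb1, Lamb2, Timp2) and 1 between the mutants (Col6a3). Col5a2 was below the 60th percentile filter and so untested there. With the replicate block the counts were 6, 20 and 4, and correlations of same-numbered arrays ran from -0.08 to 0.26. For the lists, leaving out 1 array gave in Bmp15-/- and in DM 3 to 6 and 4 to 10 calls for collagen folding and crosslinking, 1 to 6 and 6 to 12 for proteases, 3 to 6 and 8 to 13 for other matrix proteins, 1 to 4 and 10 to 13 for adhesion partners and 0 to 4 and 4 to 8 for other receptors. Quantile normalization raised the calls among other matrix proteins in Bmp15-/- from 5 to 9, while calls over all genes went from 1219 to 1110. The causes were not tested.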
